A study of Mus musculus with 24 samples.

Results

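Sulfotransferases and UDP-glucuronosyltransferases are the enzymes that attach a sulfate or a sugar acid to steroids, phenols, catecholamines, bilirubin and drugs. The set described here held 8 genes: the sulfotransferases Sult1a1, Sult1d1, Sult2b1 and Sult4a1 and the glucuronosyltransferases Ugt1a1, Ugt1a6a, Ugt1a6b and Ugt1a7c. Its members were every probe whose printed transcript accession belonged to one of these genes. This gave 11 of the 56605 probes of the array, for 6 of the 8 genes and of 23787 named genes in all. Sult1a1, Sult1d1 and Sult4a1 had 2 probes each, Ugt1a6b had 3, and Sult2b1 and Ugt1a6a had 1 each. No probe was assigned to Ugt1a1 or Ugt1a7c by accession. A mean signal intensity of 50 or more was reached by 7 probes of 4 genes (Sult1a1, Sult2b1, Sult4a1 and Ugt1a6b), and all 11 were kept. The genes were selected on the measured log2 difference between corticosterone-treated and control mice, so for them this difference is given as a description and carries no test. Comparisons between hours within a treatment use the same signals, so their p values are not independent of this selection.

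Sulfotransferases take sulfate from the activated donor PAPS, and glucuronosyltransferases take glucuronic acid from UDP-glucuronic acid. Conjugates of both kinds are more soluble in water and leave cells through efflux pumps. The Ugt1a genes are variants of one locus, in which alternative first exons are each joined to the same set of downstream exons. A probe for a first exon therefore reports one enzyme, whereas a probe in the shared exons reports the sum of them.

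Hippocampal RNA came from male Swiss-Webster mice, given as 12 weeks of age at the start, which were moved to single cages and habituated there before the treatment. Corticosterone-treated mice drank water with corticosterone (100 µg/mL), dissolved with hydroxypropyl-β-cyclodextrin (0.45%), for 12 hours of the dark phase. The control mice received water with the same cyclodextrin alone, and the animals of both groups were brothers from shared litters. Mice were sacrificed during the first, the fifth or the ninth hour of the following light phase, which is the resting period of a mouse. With 8 control and 8 corticosterone-treated mice at each hour, the design held 48 animals in 6 groups, without pooling. Each of the 24 two-color arrays carried 1 control mouse in the Cy3 channel and 1 corticosterone-treated mouse in the Cy5 channel. The dyes were never exchanged, so that treatment and dye cannot be told apart in any comparison of corticosterone-treated with control mice, whereas comparisons between hours within a treatment stayed in 1 dye. In bulk tissue, fewer cells of a type and less RNA per cell cannot be told apart either.

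The arrays lay on 3 slides that each held all 3 hours. Between 57.9 and 64.2% of the spots in the Cy3 channel and between 61 and 70.4% in the Cy5 channel were well above background. The 6 hippocampal markers, among them Prox1 of granule cells and Wfs1 of CA1, were well expressed, with mean signals from 455 (Fibcd1) to 41318 (Snap25). Of these, Snap25 differed between treatments at the fifth hour (log2 difference 0.22), and no other call was made between treatments. The summed signal of 7 choroid plexus markers lay between 893 and 2863 in single mice, with Kcne2 near background (mean 13.7), and none of the 7 passed the test at any hour. Of 6 endothelial markers 6, 4 and 2 differed at the first, the fifth and the ninth hour, in both directions, and of 6 astrocyte markers 2, 3 and 3 did, beside 17.5, 18 and 14% of all probes. Of 6 markers of the meninges, Slc22a6 alone differed, at the fifth hour (log2 difference −0.49), and the median over the 6 was −0.25, −0.31 and −0.24 at the 3 hours. The part of cell composition in the results below was not tested.

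Sult1a1, the phenol sulfotransferase, displayed the largest difference of the set. Its brighter probe A_51_P321341 was about 4 times as strong in corticosterone-treated as in control mice at the first and at the fifth hour of rest and about 3 times as strong at the ninth. During the first hour, control mice had signal intensities between 529 and 1107 (median 729). Corticosterone-treated mice of the same hour ranged from 2489 to 4159 (median 3318). The lowest treated animal thus lay well above the highest control.

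During the fifth hour the control values of this probe ran from 480 to 681 (median 581) and the treated values from 1897 to 3828 (median 2693). During the ninth hour they ran from 479 to 757 (median 521) in control mice and from 1365 to 2199 (median 1772) in treated mice. The groups did not overlap at any hour, and the treated channel was the higher one on all 24 arrays. Over all probes, every treated mouse lay above every control mouse for 0.912, 0.574 and 0.853% at the 3 hours. The mean log2 difference was 2.10 at the first, 2.19 at the fifth and 1.69 at the ninth hour (SE 0.11 for each, n = 8 mice per group), which corresponds to 4.28-fold, 4.56-fold and 3.22-fold.

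The second Sult1a1 probe, A_55_P2005475, gave the same picture, with log2 differences of 2.09, 2.18 and 1.64 (SE 0.09) at the 3 hours. Its control values lay between 408 and 879 over all hours and its treated values between 1242 and 3544, so that no treated mouse of any hour fell into the control range. On single arrays the log2 ratios of the probes differed by 0.02 on average (SD 0.12, n = 24 arrays), and the largest gap was 0.24. The same order appeared on each slide: the mean log2 ratio of A_51_P321341 lay between 1.36 and 2.47 in the 9 combinations of slide and hour.

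**Figure D1:**
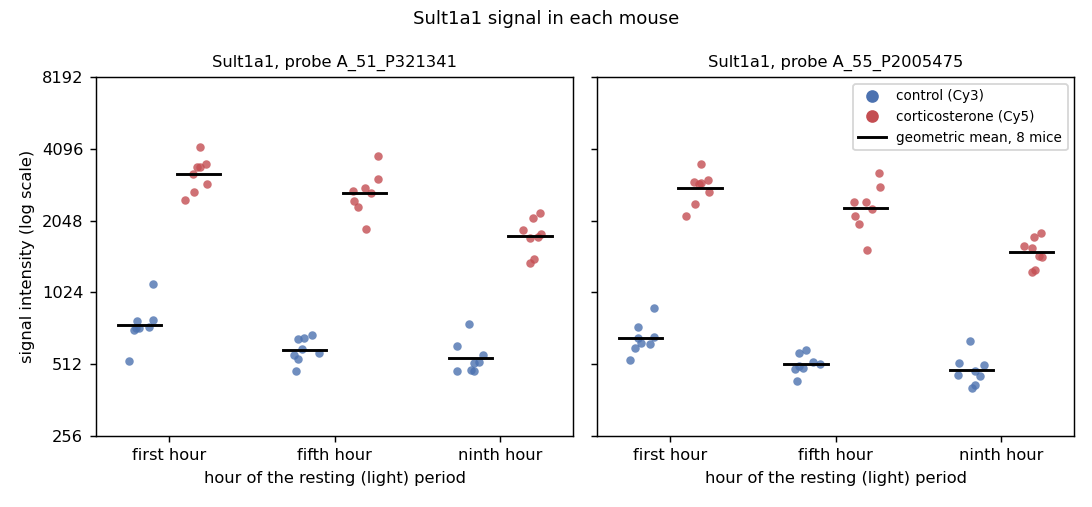
Signal intensity (log scale) of the 2 Sult1a1 probes in each of 48 mice by hour of the resting period. Blue points are control mice, red points are corticosterone-treated mice and black bars are geometric means of 8 mice. Red and blue points do not overlap at any hour, and the red points of the ninth hour (1365 to 2199 for A_51_P321341) lie below those of the first hour (2489 to 4159).

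Within the corticosterone-treated mice, the Sult1a1 signal was lower at the ninth than at the first hour. The treated signals also enter the difference the genes were selected on, so the p values between hours are not independent of that selection. For A_51_P321341 the highest treated mouse of the ninth hour (2199) lay below the lowest of the first hour (2489), and the log2 difference was −0.86 (SE 0.12, limma adjusted p = 1.21e-06). For A_55_P2005475 these values were 1817 and 2143, and the log2 difference was −0.90 (SE 0.11, limma adjusted p = 2.96e-08). Over all probes, 4.05% were called in this comparison and 1.8% were called with a lower signal. For 0.544% every mouse of the ninth hour lay below every mouse of the first. The Sult1a1 probes were the 2 of 11 member probes called here. Mean signals of A_51_P321341 fell from 2965 to 1795 on slide 1, from 3466 to 1782 on slide 2 and from 3186 to 1740 on slide 3.

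Between the fifth and the ninth hour the treated signal of A_51_P321341 fell by 0.61 on the log2 scale (SE 0.12, limma adjusted p = 0.00385) and that of A_55_P2005475 fell by 0.62 (SE 0.11, limma adjusted p = 0.000685). These were the 2 member probes called, against 0.671% of all probes (0.392% lower). The values of the fifth hour (1897 to 3828) and of the ninth hour (1365 to 2199) overlapped. Both calls were lost without slide 1 (adjusted p = 0.335 and 0.183), without slide 3 (0.166 and 0.0984) or without normalization between arrays (0.159 and 0.0524). Over all alternatives the differences stayed between −0.76 and −0.53 for A_51_P321341 and between −0.80 and −0.53 for A_55_P2005475. Between the first and the fifth hour the differences of −0.26 and −0.28 did not pass the test (adjusted p = 0.466 and 0.316), and none of the 11 member probes was called, beside 0.544% of all probes.

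Control mice displayed a difference in the same direction, with smaller values. From the first to the ninth hour the log2 difference between treatments changed by −0.41 for A_51_P321341 and −0.45 for A_55_P2005475. This change carries no test, since the genes were selected on the difference between treatments. The control signal at the ninth hour was lower than at the first by 0.46 for A_51_P321341 (SE 0.12, limma adjusted p = 0.0761) and by 0.45 for A_55_P2005475 (SE 0.11, limma adjusted p = 0.0385) on the log2 scale. The second of these was the only member probe called, against 0.542% of all probes (0.253% lower), and its ranges overlapped (408 to 642 at the ninth and 534 to 879 at the first hour). Its call was lost when any 1 slide was left out (adjusted p from 0.0711 to 0.663) and without normalization between arrays (0.494). Over all alternatives its difference stayed between −0.52 and −0.40. No member probe was called between the first and the fifth hour or between the fifth and the ninth hour of control mice, where 0.0053 and 0.0353% of all probes were.

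Ordered by geometric mean, A_51_P321341 ran from 545 in control mice of the ninth hour through 587 (the fifth hour) and 748 (the first hour) to 1756 in treated mice of the ninth hour, 2676 (the fifth hour) and 3198 (the first hour). Neighbouring control hours were not called (limma adjusted p = 0.923 between the ninth and the fifth, 0.556 between the fifth and the first), nor were the fifth and the first hour of treated mice. The 95% interval of the fit, which takes no account of the number of probes, was −0.35 to 0.13 between the ninth and the fifth control hour. It lay below 0 between the fifth and the first hour, at −0.59 to −0.11 in control and −0.50 to −0.015 in treated mice.

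The probes with a Ugt1a6b accession were also higher in corticosterone-treated mice. Ugt1a6b, and its close relative Ugt1a6a, conjugate small planar phenols and serotonin. The brightest probe with a Ugt1a6b accession, A_55_P1962404, is annotated by the study to every gene of the Ugt1a locus and is therefore called the shared-exon probe here. The exon of this probe, and of the other probes with a Ugt1a6b accession, was not checked, since no probe sequence was used. RefSeq holds 9 genes of this locus, and under that annotation the shared-exon probe cannot say which of them was higher.

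During the first hour the shared-exon probe had values between 170 and 506 (median 291) in control mice and between 436 and 1703 (median 715) in corticosterone-treated mice. During the fifth hour the ranges were 238 to 382 (median 292) and 521 to 1615 (median 683). During the ninth hour they were 238 to 370 (median 294) and 477 to 781 (median 660). The groups overlapped at the first hour, where the highest control mouse had 506 and the lowest treated mouse 436, and were separate at the later ones.

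The log2 differences of the shared-exon probe were 1.30, 1.30 and 1.11 (SE 0.17, n = 8 mice per group), or 2.47-fold, 2.46-fold and 2.16-fold. The treated channel was higher on 24 of 24 arrays, and the mean log2 ratio by slide and hour lay between 0.90 and 1.61. The dimmer probe A_55_P2742311, also with a Ugt1a6b accession, displayed differences of 1.09, 1.01 and 0.97 (SE 0.16). Whether it reports Ugt1a6b alone was not tested. Its control values ran from 29.3 to 85.8 and its treated values from 71.2 to 266 over the 3 hours. It was also higher in the treated channel of 24 arrays, and its log2 ratio was lower than that of the shared-exon probe by 0.21 on average (SD 0.28).

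The remaining 2 probes of this pair of genes were close to background. The third Ugt1a6b probe, A_55_P2143765, was well above background in no control mouse and in 2, 2 and 0 of 8 treated mice at the first, the fifth and the ninth hour. Its treated signal had means of 28.4 and 31.9 at the first and the fifth hour. No fold is given, since most treated mice were not above background either. The Ugt1a6a probe A_55_P2057577 was well above background in 1 of the 48 mice. Its mean signal lay between 16.5 and 23 in all 6 groups, so that this probe gives no level for Ugt1a6a. Under the study's annotation the shared-exon probe may also report Ugt1a6a transcripts.

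**Figure D2:**
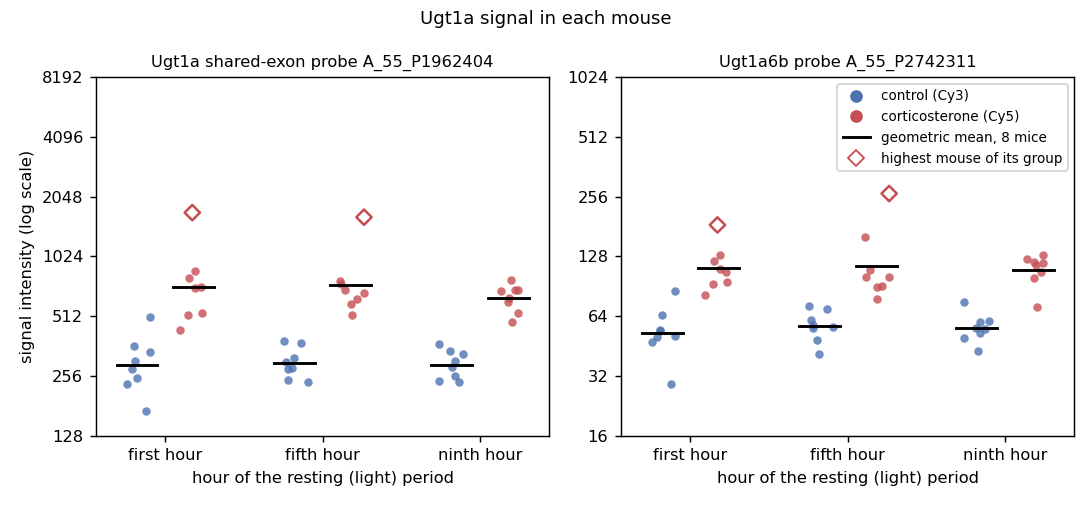
Signal intensity (log scale, a separate axis for each panel) of the shared-exon probe A_55_P1962404 and of A_55_P2742311 in each mouse by hour. Both probes carry a Ugt1a6b accession, and the exon of neither was checked. Blue points are control mice, red points are corticosterone-treated mice, open diamonds mark the treated mouse of the first and of the fifth hour with the highest shared-exon signal, and bars are geometric means of 8 mice. The same 2 mice are the highest of their groups in both panels, at 1703 and 1615 in the shared-exon panel.

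A pair of corticosterone-treated mice stood above the others for the Ugt1a probes, 1 in the first and 1 in the fifth hour. The mouse of the first hour had a shared-exon signal of 1703, where its 7 group mates ranged from 436 to 864 (median 709). The mouse of the fifth hour had 1615, against 521 to 769 (median 668). These animals were also the highest of their groups for A_55_P2742311, at 184 (others 81.4 to 129) and 266 (others 78.6 to 160). The third Ugt1a6b probe was well above background in both (40.8 and 66.1), and also in 1 mate of each, at lower signals. Ugt1a6a was so in the first mouse alone (46.1), and most mates were at background for both probes.

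For Sult1a1 the first of these mice was ordinary (3430, ranked 4 of 8 for A_51_P321341), whereas the second was the highest of its group (3828). In the first mouse 4 of the 6 hippocampal markers lay below the median of its mates, from 0.48 times (Slc17a7, a transporter of excitatory neurons) to 0.88 times (Prox1), and their sum (54842) was the lowest of its group. Its summed endothelial signal (32863) was the highest, which rested on the glucose transporter Slc2a1 (1.71 times) and on Flt1 (1.24 times), while the other 4 endothelial markers lay between 0.82 and 0.90 times. Of its 7 choroid plexus markers Otx2 was at 3.68 times, Ttr at 0.50 times and the rest between 0.96 and 1.21 times. It was also the highest in summed signal of the meninges markers (9665, others 4824 to 8522), with Lum at 1.57 times and Igf2 at 0.86 times as the extremes, and of the astrocyte markers Aqp4 was at 1.77 times and Gfap at 0.72 times. The second mouse was also the highest of its group in summed endothelial signal (24347, others 20365 to 23289), with Slc2a1, Ly6c1 and Pecam1 above the median (1.35, 1.15 and 1.07 times) and Cldn5, Flt1 and Tek below it (0.88, 0.91 and 0.81 times). It was the lowest in summed choroid plexus signal (1095), where Ttr was at 0.37 times, Clic6 at 0.62 times and the other 5 markers between 0.86 and 1.08 times. Its meninges markers lay between 0.74 and 1.33 times and its astrocyte markers between 0.87 and 1.24 times. The part of tissue composition in these values was not tested. Without the arrays of both mice the log2 differences of the shared-exon probe were 1.17, 1.19 and 1.11.

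Hours had no detectable effect on the Ugt1a probes within a treatment. For the shared-exon probe the treated mice differed by −0.19 between the ninth and the first hour (SE 0.20, limma adjusted p = 0.728) and by 0.025 between the fifth and the first (SE 0.20, limma adjusted p = 0.986). In control mice the ninth and first hour differed by 0.0046 (SE 0.20, limma adjusted p = 0.997), with group means of 296 and 305. A_55_P2742311 gave −0.035 for the ninth against the first hour of treated mice (SE 0.18, limma adjusted p = 0.96). Ordered by geometric mean, the control groups of the shared-exon probe lay at 291, 292 and 298 and the treated groups at 630, 719 and 732, with no call between neighbours of the same treatment. The interval of the treated difference between the ninth and first hour was −0.58 to 0.19 for the shared-exon probe. For Sult1a1 A_51_P321341 it was −1.11 to −0.62, and whether the genes differ in this change was not tested.

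The promoter of Sult1a1 is shown because this gene gave the largest difference in mice that received a glucocorticoid. No window was available for Ugt1a6b. That of Ugt1a6a is shown as a promoter of the same locus, although the Ugt1a6a probe gave no level. The windows are the 250 bases before the annotated start, taken from RefSeq (GRCm38.p6) and read 5′ to 3′ on the strand of the gene. Capitals mark the letters AGAACA or, on the other strand, TGTTCT, the half-site of the palindromic glucocorticoid response element. The first window is chr7:126676419-126676668 on the minus strand and the second is chr1:88134559-88134808 on the plus strand.
Sult1a1: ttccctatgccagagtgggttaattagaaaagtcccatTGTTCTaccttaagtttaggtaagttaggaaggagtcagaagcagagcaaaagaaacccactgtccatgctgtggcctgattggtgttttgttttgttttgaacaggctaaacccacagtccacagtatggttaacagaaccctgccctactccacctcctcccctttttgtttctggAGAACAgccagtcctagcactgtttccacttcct
Ugt1a6a: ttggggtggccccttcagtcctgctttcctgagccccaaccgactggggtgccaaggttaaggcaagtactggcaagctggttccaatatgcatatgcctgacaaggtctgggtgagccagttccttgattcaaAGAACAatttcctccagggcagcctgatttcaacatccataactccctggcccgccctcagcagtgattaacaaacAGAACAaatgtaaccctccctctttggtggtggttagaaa

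Each of the 2 windows held 2 half-sites, which began 212 and 34 bases before the start of Sult1a1 and 116 and 40 bases before that of Ugt1a6a. Of 32851 promoter windows of this length, 16.1% held a half-site on either strand and 1.81% held 2 or more. Windows were available for 6 of the 8 genes, with 2 for Sult2b1 and none for Ugt1a6b or Sult4a1. The Ugt1a7c window held 1 half-site, 12 bases before the start, and those of Ugt1a1, Sult1d1 and Sult2b1 held none. The full palindrome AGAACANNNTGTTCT was in no window of the set and in 0.00913% of all windows. The core GCGTG, bound by the dioxin receptor, was in the window of Sult1d1 and in 1 of those of Sult2b1 (28.2% of all windows), and TGACNNNGC, the core of the antioxidant response element, was in none (10.2% of all windows). A match is a match of letters and no binding was measured.

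Sult4a1, a sulfotransferase of neurons without a settled substrate, had the brightest probe of the set, and its probes pointed in opposite directions. These probes carry different transcript accessions, and whether they detect different variants was not tested. The bright probe A_52_P562676 ran from 29798 to 33983 (median 31128) in control and from 31197 to 36582 (median 34052) in corticosterone-treated mice of the first hour. The groups overlapped at every hour, and the log2 differences were 0.11, 0.13 and 0.08 (SE 0.04), or 1.08-fold, 1.09-fold and 1.06-fold. The treated channel was higher on 8 of 8, 5 of 8 and 6 of 8 arrays.

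The dim Sult4a1 probe A_55_P1995175 was lower in treated mice instead. Its control values of the first hour ran from 93.1 to 138 (median 104) and its treated values from 67.3 to 87.9 (median 74.5), without overlap, which was so in this direction for 0.654% of all probes. At the fifth hour (control 69.2 to 112, treated 58.9 to 92.6) and the ninth hour (control 75.8 to 125, treated 59.1 to 89.8) the ranges overlapped. The log2 differences were −0.49, −0.25 and −0.44 (SE 0.09). The bright probe was 380 times as intense as this one, and the pair had the same sign on 7 of 24 arrays. No hour difference of either probe passed the test in control or treated mice, and the smallest adjusted p was 0.492.

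Sult2b1, which sulfates cholesterol and pregnenolone, differed little. At the first hour its probe A_55_P2051778 ranged from 323 to 541 (median 390) in control and from 399 to 553 (median 462) in corticosterone-treated mice. Its log2 differences were 0.18, 0.12 and 0.12 (SE 0.09), with 95% intervals of −0.01 to 0.36, −0.06 to 0.31 and −0.06 to 0.31. The group means of the first and ninth hour were 421 and 530 in control and 471 and 580 in treated mice. The log2 differences between ninth and first hour, 0.35 (SE 0.11, limma adjusted p = 0.144) and 0.29 (SE 0.11, limma adjusted p = 0.115), did not pass the test.

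Sult1d1, which sulfates catecholamines and their metabolites, was not detectable. Neither A_55_P2181542 (group means 17.2 to 20.1) nor A_51_P481721 (11.2 to 15.1) was well above background in any of the 48 mice.

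**Figure D3:**
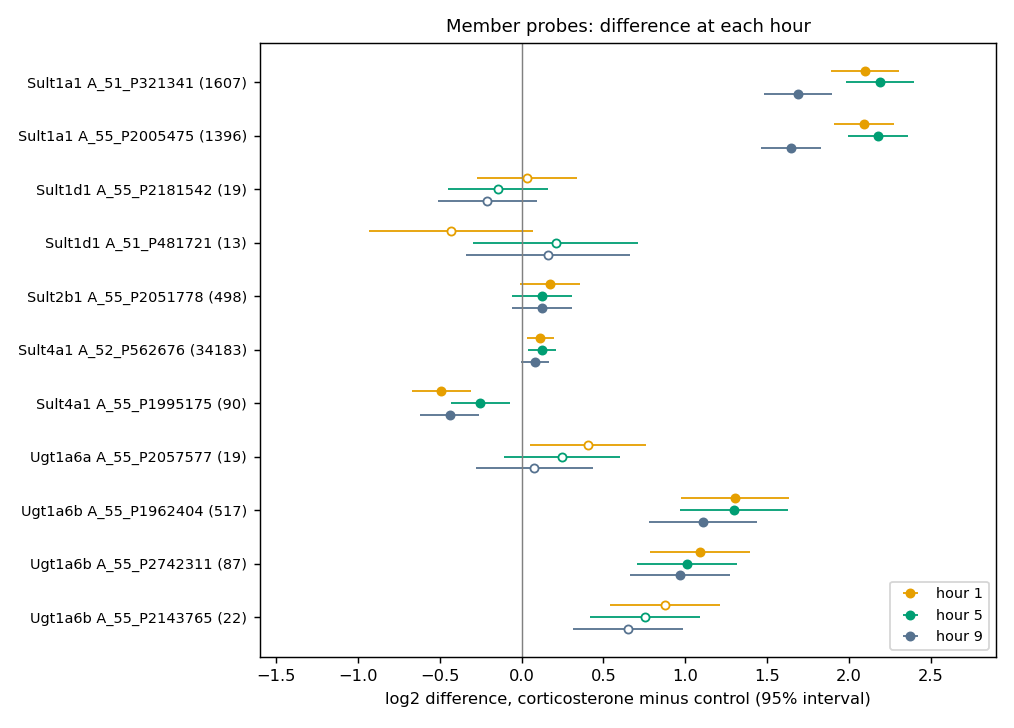
Log2 difference between corticosterone-treated and control mice for all 11 member probes at the first (orange), the fifth (green) and the ninth hour (grey-blue), with 95% intervals of the fit. Numbers in brackets are mean signal intensities, and open symbols mark probes of mean intensity under 50, for which no fold is read. The Sult1a1 probes lie between 1.64 and 2.19, the shared-exon probe between 1.11 and 1.30, and the Sult4a1 probes on both sides of 0.

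In all, 7 of the 11 member probes were called at the first hour (6 higher, 1 lower), where 17.5% of all probes were called (9.06% higher and 8.45% lower). At the fifth hour 7 were called (6 higher, 1 lower), beside 18% of all probes, with 8.94% higher and 9.08% lower. At the ninth hour 6 were called (5 higher, 1 lower), beside 14% of all probes, with 7.3% higher and 6.68% lower. The higher ones were both Sult1a1 probes and the 3 Ugt1a6b probes at each hour and bright Sult4a1 at the first and the fifth hour, and the lower one was dim Sult4a1. The median log2 difference over the 11 probes was 0.41, 0.25 and 0.16, beside 0.00094, 0.0038 and 0.0033 over all probes. These medians fell on probes near background (Ugt1a6a at the first and the fifth hour, Sult1d1 at the ninth), and with 50 added to each signal, which shrinks dim probes, they were 0.15, 0.13 and 0.11. These genes were proposed from the same contrast, and nothing is read from the counts.

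Some of these calls between treatments, which are given as a description only, were lost with other processing, and some were gained. Gained calls, by the lowest adjusted p over the alternatives, were Sult2b1 at the first hour (0.0471) and bright Sult4a1 at the ninth (0.0405). Sult1d1 A_51_P481721, not well above background in any mouse, reached 0.0297 at the fifth hour. Bright Sult4a1 A_52_P562676 was no longer called at the first hour when any 1 slide was left out (adjusted p from 0.108 to 0.144), nor at the fifth hour without slide 1 or slide 3 (0.441 and 0.0964). Dim Sult4a1 A_55_P1995175 was no longer called at the fifth hour when any 1 slide was left out (0.0843 to 0.233) and at the ninth without slide 1 (0.0531). For Ugt1a6b A_55_P2143765 the call was lost at the first hour without slide 3, at the fifth without slide 1 (0.0539) and at the ninth when any 1 slide was left out (0.0927 to 0.201). Under other background corrections, normalizations or tests the first-hour call of bright Sult4a1 reached an adjusted p of 0.0752, the fifth-hour call of dim Sult4a1 0.107, and the first-hour and ninth-hour calls of A_55_P2143765 0.0905 and 0.31.

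The other genes of the 2 families are the rest by family name, after the members had been taken out for their difference between treatments. They had 35 probes for 30 genes, and 6 of these probes, for 4 genes, reached an intensity of 50. Of the 35 probes, 6 differed at the first, 6 at the fifth and 7 at the ninth hour, beside 17.5, 18 and 14% of all probes. The median log2 difference was −0.022, 0.034 and −0.043 over 20 further sulfotransferase probes and −0.13, −0.096 and −0.14 over 15 further glucuronosyltransferase probes. With 50 added to each signal the medians were 0.00086, 0.022 and 0.0062 for the former and −0.030, −0.019 and −0.044 for the latter, and most of these probes were near background. The dimmer probes among those called belonged to Sult2a1, Sult2a6, Sult3a1, Ugt1a10, Ugt2b1 and Ugt2b35, none of which was well above background in any mouse or was called at all 3 hours.

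Among relatives with a probe of intensity 50 or more, Sult5a1 had the largest rise, in 1 of its 2 probes. A_51_P471458 was higher in treated mice by 0.54 (SE 0.09, limma adjusted p = 7.9e-06), 0.62 (adjusted p = 5.46e-07) and 0.54 (adjusted p = 2.04e-05) on the log2 scale. Its other probe, A_66_P127607, gave 0.10, 0.15 and 0.16 (SE 0.10), which did not pass the test (adjusted p = 0.492, 0.285 and 0.293). The difference between these probes was not tested.

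Ugt8a, which makes the galactosylceramide of myelin, was lower in corticosterone-treated mice, opposite to the Ugt1a probes. Its probe A_52_P439263 differed by −0.81 (SE 0.16, limma adjusted p = 0.00026) and −0.62 (adjusted p = 0.00511) at the first and the fifth hour and by −0.35 (adjusted p = 0.136) at the ninth. The dimmer A_51_P506822 differed by −0.62, −0.41 and −0.33 (SE 0.10, adjusted p = 9.02e-06, 0.00242 and 0.0168). At the fifth hour both calls were lost without slide 3 (adjusted p = 0.101 and 0.0826). The call of A_51_P506822 at the ninth hour was lost without slide 1 (0.355) or slide 2 (0.0617), whereas A_52_P439263 was called there without slide 3 (0.0445).

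Sult2a8, a sulfotransferase of bile acids, was slightly lower, by −0.18, −0.21 and −0.19 (SE 0.06, limma adjusted p = 0.0274, 0.0101 and 0.0205), and the calls were lost without slide 3 at all hours (adjusted p = 0.0796, 0.265 and 0.0704). Without slide 1 they were lost at the first and ninth hour (0.214 and 0.311), and without slide 2 (0.0689) or with Aquantile normalization (0.0532) at the first. Ugt2a1, an enzyme of the olfactory epithelium, gave 0.15, 0.19 and 0.0097 (SE 0.08), which did not pass the test. At the fifth hour, where the adjusted p was 0.0741, it passed with Aquantile normalization (0.0365), without normalization between arrays and with the authors' log2 ratios.

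**Figure D4:**
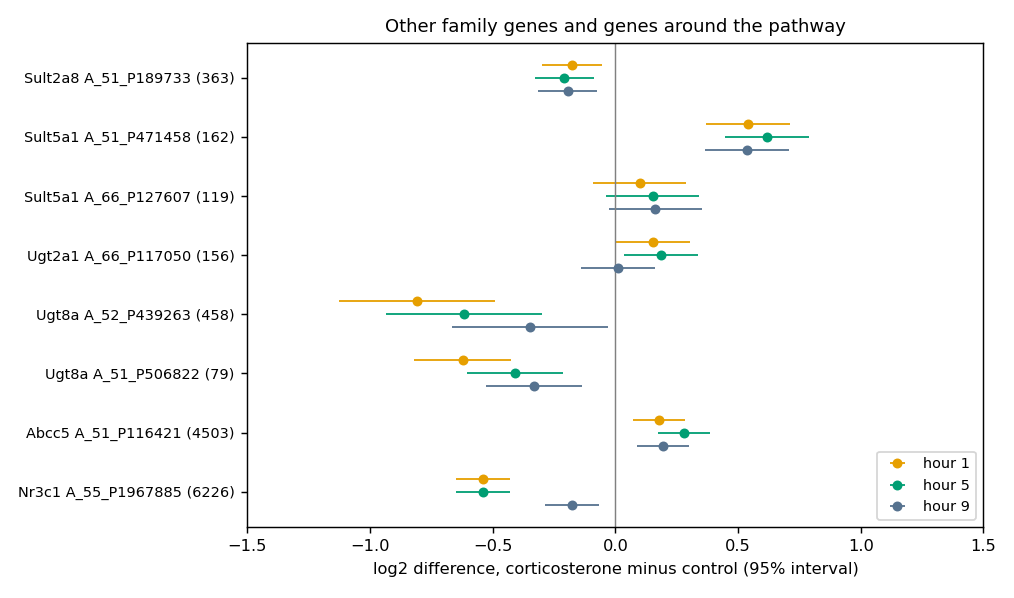
Log2 difference between corticosterone-treated and control mice, with 95% intervals, for the 6 probes of other family genes with a mean intensity of 50 or more and for Abcc5 and Nr3c1. Orange, green and grey-blue are the first, the fifth and the ninth hour, and numbers in brackets are mean signal intensities. Sult5a1 A_51_P471458 lies between 0.54 and 0.62, and Ugt8a, Sult2a8 and Nr3c1 lie below 0.

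Around the enzymes, 36 genes that supply the donors, move conjugates or sense steroids and foreign compounds were followed by their brightest probes. These lists were chosen with earlier results of these data known, so the p values of their genes are given as a description. Of these, 10 differed at the first hour (4 higher, 6 lower), 8 at the fifth (4 higher, 4 lower) and 5 at the ninth (3 higher, 2 lower), beside 17.5, 18 and 14% of all probes. The same direction at all 3 hours was found for 2 genes, where 3.12% of all probes were higher and 2.77% lower at each hour. Nr3c1, the glucocorticoid receptor, was lower by −0.54 (SE 0.06, limma adjusted p = 2.11e-10), −0.54 (adjusted p = 3.25e-10) and −0.18 (adjusted p = 0.0198). Abcc5, an efflux pump of conjugates, was higher by 0.18, 0.28 and 0.19 (SE 0.05, limma adjusted p = 0.0106, 9.51e-05 and 0.00725).

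These ninth hour calls were lost for Nr3c1 without slide 2 or 3 (adjusted p = 0.0945 and 0.17) and in a test on log ratios (0.0523), and for Abcc5 without slide 1 (0.193). The Abcc5 calls were also lost without slide 3 at the first and the fifth hour (0.0707 and 0.0631) and without slide 2 at the first (0.215).

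Of 12 genes of the donors, 2 differed at each hour, beside 17.5, 18 and 14% of all probes. Those given here were named after their values were seen. Ugp2 and Papss1, which make UDP-glucose and PAPS, were lower at the first hour (−0.40 and −0.17, limma adjusted p = 0.00726 and 0.0103) and the fifth (−0.32 and −0.19, adjusted p = 0.0331 and 0.0057). Papss2, the other PAPS synthase, and the phosphatase Bpnt2 were higher at the ninth hour (0.19 and 0.13, adjusted p = 0.0486 and 0.0161). Ugdh, which makes UDP-glucuronic acid, did not pass the test at the first hour (−0.11, adjusted p = 0.0842).

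Of 13 transporters, 5 differed at the first hour, 3 at the fifth and 2 at the ninth, beside 17.5, 18 and 14% of all probes. Beside Abcc5, the efflux pumps Abcb1a and Abcc4 were higher at the first hour (0.29 and 0.39, limma adjusted p = 0.00103 and 0.00208), and Slc22a8 and Slco1c1 were lower (−0.30 and −0.24, adjusted p = 0.0044 and 0.0254). At the fifth hour Abcb1a (0.24, adjusted p = 0.00661) and Slco1a4 (0.22, adjusted p = 0.00838) were higher. Abcg2 was lower at the ninth hour (−0.33, adjusted p = 0.000151). Of 11 sensors, 3, 3 and 1 differed, beside the same shares: Nr3c1, the mineralocorticoid receptor Nr3c2 (−0.26 and −0.25 at the first and the fifth hour, limma adjusted p = 0.00102 and 0.00192) and Ppara (0.32 and 0.21, adjusted p = 0.000739 and 0.031).

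Among the 5 genes whose 6 group means followed those of Sult1a1 most closely were Pla2g3, a secreted phospholipase, Etnppl, an ethanolamine phosphate lyase, Lao1, an amino acid oxidase, and the ferroxidase Heph. Each profile was centred on its own mean, and the root mean square difference to A_51_P321341 was 0.23, 0.31, 0.34 and 0.44 on the log2 scale, where the median over 15437 genes was 1.04. For the shared-exon Ugt1a probe the 5 nearest included Heph (0.07), Fam107a (0.15), Phyhd1 (0.16) and angiotensinogen, Agt (0.17), with a median of 0.62. Heph was in both lists. A gene without any change would lie about as far away as these medians. A small difference therefore shows mainly that a gene also differed between treatments, the contrast on which the members were selected.

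**Figure D5:**
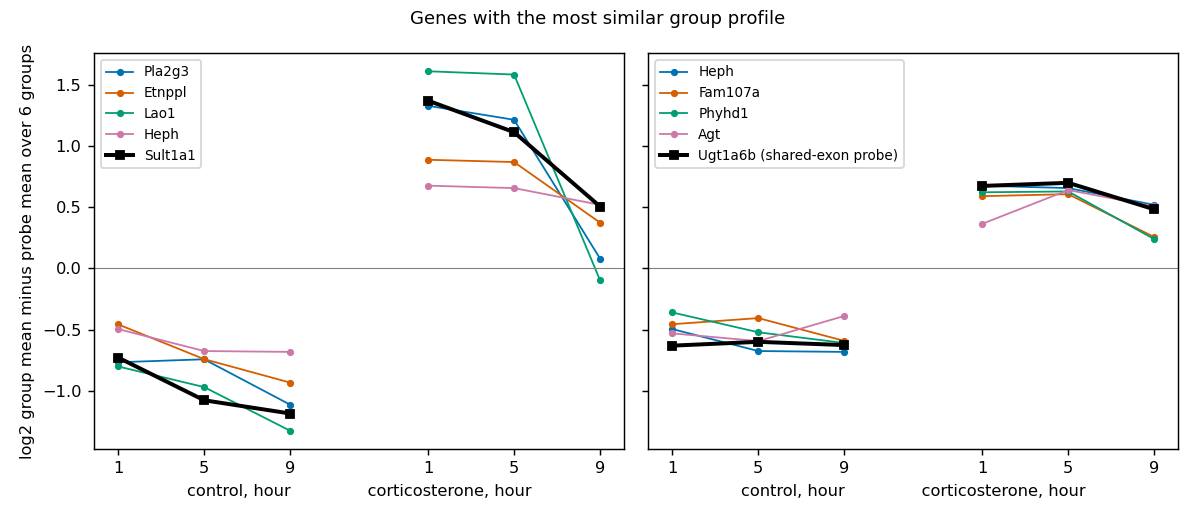
Group means of log2 signal, each minus the mean of the probe over the 6 groups, for Sult1a1 (left, black) and the shared-exon Ugt1a probe (right, black) with 4 of the 5 genes nearest to each (colors). The left 3 points of a panel are control mice and the right 3 are corticosterone-treated mice at hours 1, 5 and 9. The control points lie below 0 and the corticosterone points above it, except that of Lao1 at the ninth hour, and Sult1a1 is lower at the ninth than at the first hour in both.

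Of the nearest genes, Pla2g3 had log2 differences between treatments of 2.09, 1.95 and 1.19 and Lao1 of 2.41, 2.55 and 1.23. Heph (1.17, 1.33 and 1.20) had values close to those of the shared-exon probe (1.30, 1.30 and 1.11). The groups share their control and treated mice for all of these genes, and whether the genes differ from each other was not tested.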

How the data were processed

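Total hippocampal RNA of single mice was hybridized on two-color Agilent arrays. The authors deposited, for each array, unnormalized Cy3 and Cy5 intensities of each spot (medians over its pixels and over the pixels around it), and per spot whether it was an outlier, was saturated or exceeded background. A further table deposited by the authors holds log2 ratios of Cy5 over Cy3, which lay within a median of 0.0088 of the log2 ratios computed here with an offset of 50; it served as an alternative. Group, time point and dye came from the sample labels, and the hour of each time point came from the study's description.

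The intensities were corrected with normexp in limma 3.58.1 (R 4.3.3), adding 50 for the p values and 0 for signals, log2 differences and SEs, followed by loess within and quantile normalization between arrays. Outlier spots were missing, 3671 control spots were left out and copies of a probe were averaged. No member probe lacked a value. The separate channel test, with an intraspot correlation of 0.279, fitted 6 groups over all channels, so that the 2 mice of an array are treated as a pair. Adjusted p values follow Benjamini and Hochberg over 56605 probes for each comparison, and a probe was called at an adjusted p under 0.05. SDs are those of mice or arrays, SEs are those of the fit, and n counts mice. The number of arrays limits the precision. Mice of a group came from shared litters, and litter could not be used as a term.

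Gene names came from RefSeq through the printed accessions (34566 of the probes were named). The members and the lists of relatives, donor, transport, sensor and marker genes were chosen with earlier results of these data known. Named are all member probes, relatives with a probe of intensity 50 or more, list genes called in one direction at all hours, and the 5 genes nearest to Sult1a1 and to the shared-exon probe by root mean square difference over 6 group means, of which 1 is not reported here; any other gene was named after its values were seen. Promoter windows came from RefSeq and were searched in Python 3.11.15. Tested on simulated data of 56605 probes, the fit found 96% of 100 probes changed by 0.5 (log2) in the first-hour comparison of treatments. It found 99% of 100 changed by 1 there, with 2.01% false calls. In the comparison of the ninth with the first hour of control mice it found 93 and 100%, with 3.5% false calls. The simulation held few changed probes, independent noise with a shared spot effect, and no slide, litter or dye effect. It also left out the normalization, so these rates do not cover such effects in the real data.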

Additional observations from a re-analysis of the deposited data

Results flagged for a closer look

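The 6 member probes that were well above background in all mice formed 36 groups of 8 mice, compared on the log2 scale. In 2 groups the gap between the most extreme mouse and its neighbour was large against the range of the group on that scale. Chance gives about 1 such group in 20. The shared-exon Ugt1a probe A_55_P1962404 reached 1610 in 1 corticosterone-treated mouse of the fifth hour, where the next mouse had 769 and the group median was 683. The bright Sult4a1 probe A_52_P562676 reached 42100 in another treated mouse of that hour, where the next had 37400 and the median was 36000. These are different animals, and the part of a single RNA sample in either value was not tested.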

How the results depend on the processing

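Each result was computed again in the 14 to 17 ways that apply to it, out of 16 (other offsets, no background correction, other normalizations, processed signals, a filter at intensity 50, a test on log ratios, separate fits, control channels alone, slide as a block, each slide left out, the authors' log2 ratios) and 2 chosen after seeing the data (outlier spots kept; without the 2 mice highest for Ugt1a6b). Counts stayed within 1.5 times in 214 of 240 cases, and no direction of a called value turned. Without slide 1 the calls fell to 4 member probes at the fifth hour (7 with all arrays), to 0 for the ninth against the first hour of control mice (1) and the ninth against the fifth of treated mice (2), to 3 and 2 relatives at the first and ninth hour (6 and 7), and to 4 and 2 list genes at the fifth and ninth (8 and 5). Without slide 2 they were 0 for the same control comparison, 3 and 4 relatives at the first and ninth hour, and 5 and 3 list genes at the first and ninth (10 and 5). Without slide 3 they were 0 and 0 for the control and treated comparisons, 3 and 2 relatives at the first and the fifth hour (6 and 6), and 4, 5 and 3 list genes at the 3 hours. Fewer arrays enter each of these fits. Without normalization between arrays both comparisons gave 0. The intensity filter gave 2 member probes for the control comparison and 3 relatives at the ninth hour, the processed signals 4 relatives at the ninth hour, and separate fits 5 and 8 list genes at the fifth and ninth hour; the cause was not tested. The ninth against first hour difference of Sult1a1 in treated mice was called in every alternative that gives it. For dim probes the offset shrinks the value: Ugt1a6b A_55_P2742311 gave 0.62 with an offset of 50 in place of 1.09 at the first hour. The mice of an array were paired in the separate channel test and in the test on log ratios. No paired analysis was possible by replicate number because the labels give none. No dye exchange exists, so no alternative separates dye from treatment.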
